A study of Mus musculus with 10 samples.

Results

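Olfactory receptor genes encode the G protein-coupled receptors with which olfactory sensory neurons detect odorants, and they form the largest gene family of the mouse. They lie in clusters scattered over most chromosomes, usually with an intronless coding sequence, and each olfactory sensory neuron expresses a single allele while the other receptor genes stay silent in heterochromatin. Class I receptors, related to those of fish, lie mainly in 1 large cluster on chromosome 7, and class II receptors make up most of the other clusters. In the olfactory epithelium the silent receptor clusters are known for trimethylation of histone H3 at lysine 9 (H3K9me3), a mark of constitutive heterochromatin. Trimethylation at lysine 27 (H3K27me3) is the mark of Polycomb repression. H3K4me3 marks active or poised promoters and H3K4me1 marks enhancers and the flanks of promoters.

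The members were the protein-coding genes of the mouse gene table whose symbol is Olfr or Or followed by the receptor number. This gave 1106 of 21900 protein-coding genes, of which 1105 could be placed on a chromosome and were described. A further 4 protein-coding entries with a receptor name and a suffix, such as Olfr715b, do not match and were counted neither as members nor as genes of other kinds. The remaining member, Olfr100, is listed outside the ordered genes of its chromosome and was left out. Each gene was taken with 10 kb on each side, and neighbours less than 500 kb apart formed a cluster. The 1105 genes formed 54 clusters on 17 chromosomes, with a total territory (the union of their windows) of 19.9 Mb. There were 16 clusters of 20 or more genes, which held 897 genes or 81.2% of the members, 28 clusters of 2 to 19 genes with 198 genes, and 10 isolated genes. The 3 largest clusters alone held 442 genes, or 40% of the family. By the MOR family number among their synonyms, 123 genes were class I and 958 were class II. The other 24 were left unclassed, for want of a usable number or because their numbers fell in both classes.

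The samples were retinal cells of C57BL/6 mice isolated as Glast+ at postnatal day 28, where Glast (Slc1a3) is a glutamate transporter of Müller glia. H3K4me3, H3K4me1, H3K27me3 and H3K9me3 were each mapped by ChIP-seq in 2 experiments, Exp1 and Exp2, from the chromatin of 25000 cells per precipitation. The labels do not say whether the 2 experiments drew on separate animals, so the spread between them may be technical. The deposited files hold islands, stretches of enriched windows with a position and a p-value, and no read counts, so the depth is unknown. All cells come from 1 condition, so the comparisons are between loci, given as coverage with the spread of the 2 experiments and without a p-value. Neighbouring genes share islands, so genes of a cluster are not independent observations.

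As a check of the label, all 10 Müller glia markers carried H3K4me3 in their window in both experiments, among them Slc1a3, Glul (glutamine synthetase) and Rlbp1 (a retinoid-binding protein). So did the rod genes Nrl and Crx (transcription factors), Pde6b and Gnat1 (phototransduction), Sag (arrestin) and Nr2e3 (a nuclear receptor). H3K4me3 was also carried by 1 of 5 microglia markers and 2 of 4 endothelial markers. H3K4me3 is common, since 68.4% of all protein-coding genes had it in their window. By the 50% rule given below, 1 of the 10 Müller glia markers, Rlbp1, also carried H3K27me3, where 19.7% of all genes did. The mark covered 94.0% of the Rlbp1 window in each experiment, and 50.1% and 89.1% of the Sox9 window in Exp1 and Exp2. A window counted as carrying H3K27me3 can thus also hold H3K4me3. The part of rod chromatin in the values below was not tested.

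Promoters of 4 members are shown as examples of some of the chromatin states described below. None of them carried H3K9me3 alone. The sequences are the 250 bases before the annotated gene start, taken from RefSeq on GRCm38.p6 (mm10). Olfr94 (chr17:37197967-37198216, minus strand) had H3K27me3 without H3K9me3 and lay under the H3K4me1 island joined over both experiments. Olfr17 (chr7:107097217-107097466, plus strand) had both repressive marks over its whole window. Olfr160 (chr9:37712281-37712530, minus strand) had no island of any mark in either experiment. Olfr16 (chr1:172956518-172956767, plus strand) was covered by H3K27me3 in Exp1 and by no island in Exp2. Capitals mark the homeodomain-type motif TAATGA or its reverse complement TCATTA.
Olfr94: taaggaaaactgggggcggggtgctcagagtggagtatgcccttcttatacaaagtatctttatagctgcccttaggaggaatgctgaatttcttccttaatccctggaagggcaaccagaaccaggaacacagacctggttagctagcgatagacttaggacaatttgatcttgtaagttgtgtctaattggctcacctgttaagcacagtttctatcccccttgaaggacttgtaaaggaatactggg
Olfr17: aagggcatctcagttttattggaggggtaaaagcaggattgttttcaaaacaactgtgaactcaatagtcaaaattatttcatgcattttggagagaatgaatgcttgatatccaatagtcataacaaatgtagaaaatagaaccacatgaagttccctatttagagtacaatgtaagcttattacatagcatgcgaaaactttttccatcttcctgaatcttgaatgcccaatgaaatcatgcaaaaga
Olfr160: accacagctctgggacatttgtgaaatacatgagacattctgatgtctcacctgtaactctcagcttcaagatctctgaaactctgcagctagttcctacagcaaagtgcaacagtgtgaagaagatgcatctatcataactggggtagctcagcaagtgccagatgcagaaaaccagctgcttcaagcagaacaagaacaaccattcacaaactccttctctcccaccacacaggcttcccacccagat
Olfr16: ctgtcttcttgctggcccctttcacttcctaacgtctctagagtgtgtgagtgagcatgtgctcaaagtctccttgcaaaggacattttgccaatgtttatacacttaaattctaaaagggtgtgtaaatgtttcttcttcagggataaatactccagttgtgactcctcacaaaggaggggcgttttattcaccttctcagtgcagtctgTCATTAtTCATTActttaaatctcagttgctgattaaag

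Both strands were searched for 3 motifs. TAATTA and the TAATGA motif are core sites of homeodomain proteins, and the palindrome of TCCC and GGGA with any 2 bases between them is a core site of Ebf factors. Olfr16 held the TAATGA motif at 2 places, and none of the 3 motifs stood in the windows shown for Olfr94, Olfr17 and Olfr160. Of the 1105 members, 940 had an entry in the promoter table. TAATTA stood in 18.2% of these 940 promoters, against 4.45% of all 17492 protein-coding promoters in the table. TAATGA stood in 25.2%, against 7.73% of all promoters. The Ebf-type palindrome stood in 0.426%, against 0.818% of all promoters. The receptor promoters had a median GC content of 34% and a median of 1 CpG, against 55.2% GC and 10 CpGs over all promoters. The part of this difference in base composition in the motif shares was not tested. Most receptor entries are coding sequences alone: of the 903 gene spans of 1100 bp or less, 800 had a length that is a multiple of 3, so the annotated start is often the start of the coding sequence and these windows need not hold the transcription start.

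Across the receptor territory the repressive marks were widespread and the H3K4 marks were almost absent. H3K27me3 islands covered 79.0% of the territory in Exp1 and 65.0% in Exp2, a mean of 72.0% ± 9.85 (SD, n = 2). H3K9me3 islands covered 68.1% in Exp1 and 62.8% in Exp2, a mean of 65.5% ± 3.76 (SD, n = 2). H3K4me1 covered 0.529% and 0.488%, and H3K4me3 covered 0.318% and 0.406%. For windows with the same 10 kb on each side of all other protein-coding genes, H3K27me3 covered 15.2% ± 1.89, H3K9me3 9.78% ± 1.89, H3K4me1 13.3% ± 5.27 and H3K4me3 4.11% ± 0.324 (SD, n = 2 each). These windows are longer, with a median gene span of 18.9 kb against 951 bp for receptor genes. In both experiments, coverage of receptor territory was thus higher for each repressive mark and lower for each H3K4 mark, by more than the spread between experiments. Receptor territory is 0.748% of the length of the gene-bearing chromosomes. It held 2.22% of the summed island length of H3K27me3 in Exp1 and 2.44% in Exp2, and 2.22% and 2.59% of that of H3K9me3. It held 0.102% and 0.137% of the H3K4me3 length and 0.0418% and 0.0676% of the H3K4me1 length.

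Both repressive marks lay largely on the same stretches. Counting only bases covered in both experiments, 48.7% of the territory was under both marks, 14.6% under H3K27me3 alone, 9.63% under H3K9me3 alone and 27% under neither. Of the H3K27me3 length, 76.9% was also under H3K9me3, and of the H3K9me3 length, 83.5% was also under H3K27me3. The islands were long. Those that touched receptor territory had a median width of 185 and 155 kb for H3K27me3 in Exp1 and Exp2, against 50 and 80 kb over all islands of these lists. For H3K9me3 the medians were 99 and 102 kb, against 30 and 45 kb. A longer island touches any given locus more readily, so these medians are a description. The islands were built from windows of 5000 bp for H3K27me3 and 3000 bp for H3K9me3, against 200 bp for the H3K4 marks, so the edges of the repressive islands are coarse.

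The widest H3K9me3 island on a receptor locus lay on chromosome 17, from 37287001 to 40221000 in Exp1 and from 37287001 to 40218000 in Exp2. It is 2934 kb and 2931 kb wide in the 2 experiments and holds the 36 receptor genes from Olfr101 to Olfr136. The widest H3K27me3 island in Exp1, of 1925 kb, overlapped it and held 44 receptor genes from Olfr92 to Olfr136. In Exp2 the widest was an island of 1695 kb on chromosome 9, from 18730001 to 20425000, which held 35 receptor genes from Olfr24 to Olfr18.

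**Figure D1:**
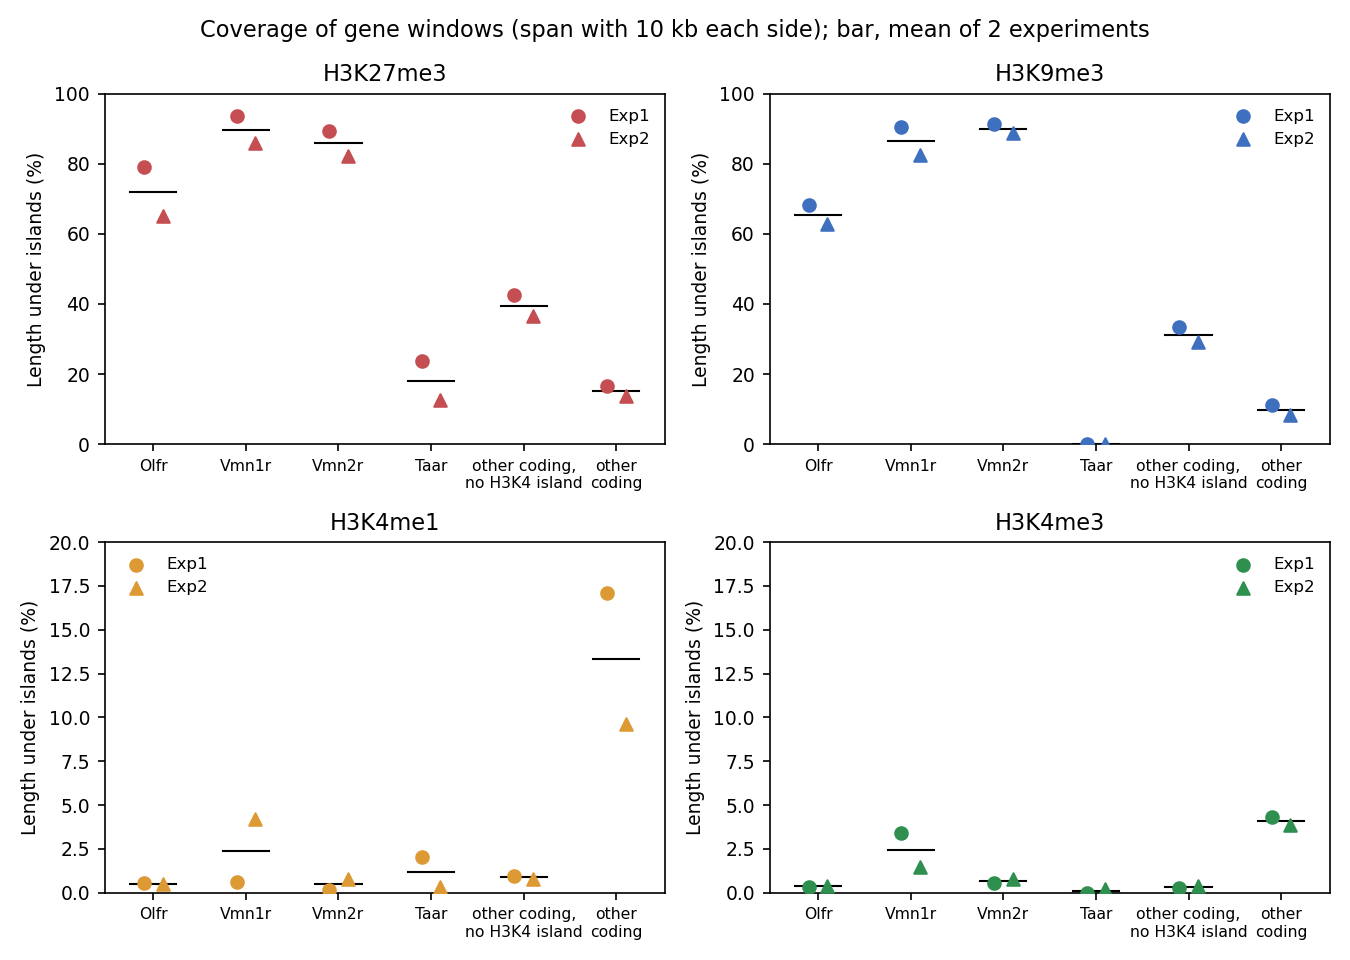
Percent of the summed gene windows under islands of each mark, for olfactory receptor genes (Olfr), vomeronasal receptor genes (Vmn1r, Vmn2r), trace amine-associated receptor genes (Taar), other protein-coding genes without H3K4me3 or H3K4me1 in the window, and all other protein-coding genes; circles are Exp1, triangles Exp2 and bars their mean, and the vertical scales of the upper and lower panels differ. The Olfr windows lie at 65.0% to 79.0% for H3K27me3 and 62.8% to 68.1% for H3K9me3, below both vomeronasal families and above the other groups.

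A gene was counted as carrying a repressive mark when 50% or more of its window was covered by bases that lay under islands of both experiments. By this rule 486 receptor genes (44.0%) carried both repressive marks, where 10.2% of all 21774 placed protein-coding genes did. H3K27me3 alone was carried by 177 receptor genes (16.0%), where 9.57% of all genes did. H3K9me3 alone was carried by 112 (10.1%), where 1.61% of all genes did. Neither mark was carried by 330 receptor genes (29.9%), against 78.7% of all genes. In all, 663 receptor genes (60%) carried H3K27me3 and 598 (54.1%) carried H3K9me3, where 19.7% and 11.8% of all genes did.

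Most windows were covered fully or not at all. Of the 1105 genes, 616 were covered over their whole window by H3K27me3 and 357 were at 0. For H3K9me3, 545 were covered fully and 363 were at 0. The 50% line therefore passed through few genes: 4 genes lay between 50% and 55% and 6 between 45% and 50% for H3K27me3, and 8 and 5 for H3K9me3. For genes, the choice of experiment moved the counts. Exp1 alone gave 642 genes with both marks, 209 with H3K27me3 only, 62 with H3K9me3 only and 192 with neither. Exp2 alone gave 515, 168, 142 and 280. The same state was found in both experiments for 783 of the 1105 genes (70.9%).

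Among the 330 genes with neither mark, 108 were at 0 for both marks in all 4 island lists, and these lay in 19 clusters. Another 167 had 50% or more of their window covered in at least 1 of the 4 lists, and 117 of the 330 were covered by H3K27me3 in Exp1 and not in Exp2. The class of genes without either mark is thus partly a class of genes on which the experiments differed.

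Clusters were classed by the same 50% rule on their whole territory. H3K27me3 and H3K9me3 were both carried by 19 clusters with 416 genes in all. H3K27me3 alone was carried by 20 clusters with 324 genes, H3K9me3 alone by 2 clusters with 237 genes, and neither by 13 clusters with 128 genes. With the islands of Exp1 alone, 32 clusters carried both marks, 15 H3K27me3 only, 0 H3K9me3 only and 7 neither. With Exp2 alone the counts were 24, 15, 4 and 11. The line moved the cluster counts as well: at 25% coverage 33 clusters carried both and 7 neither, and at 75% 10 carried both and 25 neither. Of the 16 clusters of 20 or more genes, 10 carried both, 3 H3K27me3 only, 1 H3K9me3 only and 2 neither. Of the 28 clusters of 2 to 19 genes, 8 carried both, 11 H3K27me3 only, 1 H3K9me3 only and 8 neither. Of the 10 isolated genes, 1 carried both, 6 H3K27me3 only and 3 neither. Among these 6, H3K9me3 covered 100% of the Olfr1402 and Olfr466 windows in Exp1 and 0% in Exp2. It covered 38.0% and 100% of the Olfr19 window and 22.3% and 7.99% of that of Olfr1325. Only Olfr266 and Olfr370 were at 0% for H3K9me3 in both experiments.

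Coverage by H3K27me3 differed by less than the spread between experiments over the 3 size classes, and coverage by H3K9me3 differed by more between the large clusters and the others. H3K27me3 covered 72.1% ± 10.4 of the territory of clusters of 20 or more genes, 71.5% ± 8.08 of that of clusters of 2 to 19 genes and 72.6% ± 1.76 of that of isolated genes (SD, n = 2 each). H3K9me3 covered 70.4% ± 3.47, 46.7% ± 4.54 and 30.3% ± 12.2. For H3K9me3 the large clusters lay above both other classes in each experiment, with 72.9% and 68.0%, against 49.9% and 43.5% in clusters of 2 to 19 genes and 38.9% and 21.7% for isolated genes. In each experiment H3K27me3 covered more of the territory than H3K9me3 in 28 of the 54 clusters, and H3K9me3 covered more in 3.

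**Figure D2:**
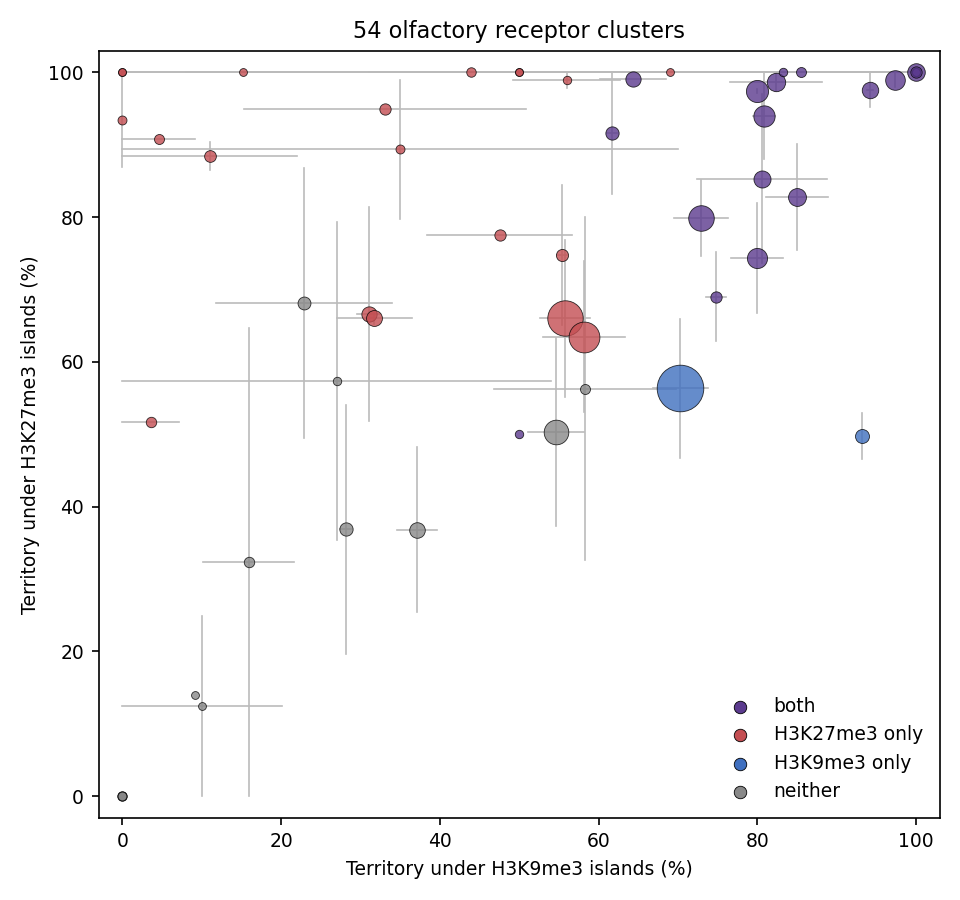
Percent of the territory of each of the 54 clusters under H3K9me3 islands (horizontal) and H3K27me3 islands (vertical); points are the mean of Exp1 and Exp2, grey lines join the 2 experiments, point area grows with the number of genes, and colours give the state called from bases covered in both experiments. Large clusters with both marks gather at the upper right, 20 clusters with H3K27me3 only lie mostly along the top, and 2 clusters have H3K9me3 only.

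The clusters most fully covered were on chromosomes 2, 7, 8, 9 and 16. The 27 genes from Olfr338 to Olfr368 on chromosome 2 (36376778 to 37332732) lay under both marks over 100% of their territory in both experiments, and so did the 8 genes from Olfr164 to Olfr171 on chromosome 16, Olfr291 and Olfr290 on chromosome 7, and the isolated Olfr371 on chromosome 8. The 35 genes from Olfr24 to Olfr18 on chromosome 9 (18754692 to 20336094) were covered over 98.0% and 100% by H3K27me3 in Exp1 and Exp2 and over 97.4% by H3K9me3 in each. In that cluster only Olfr24, the gene at the proximal edge, carried neither mark. These 5 clusters held 73 genes.

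Other large clusters with both marks were less even. The 46 genes from Olfr90 to Olfr136 on chromosome 17 (37085191 to 38336097), which lie in the extended major histocompatibility region, had 97.8% and 97.2% of their territory under H3K27me3 and 80.0% under H3K9me3 in each experiment. H3K9me3 there began near Olfr99: the 10 genes from Olfr90 to Olfr99 were below the 50% line, with 16.3% of the Olfr99 window covered in each experiment, and all 36 genes from Olfr101 to Olfr136 carried both marks. The 30 genes from Olfr20 to Olfr412 on chromosome 11 had 99.9% and 97.4% under H3K27me3 and 88.1% and 76.5% under H3K9me3. The 63 genes from Olfr1417 to Olfr1505 on chromosome 19 (11828077 to 13919972) had 85.1% and 74.6% under H3K27me3 and 69.5% and 76.3% under H3K9me3, with an unbroken run of 35 genes under both marks from Olfr1444 to Olfr1497. The clusters Olfr693 to Olfr716 and Olfr467 to Olfr519 on chromosome 7, Olfr1275 to Olfr1318 on chromosome 2, Olfr722 to Olfr750 on chromosome 14 and Olfr172 to Olfr209 on chromosome 16 carried both marks as well, with 64.5% to 95.2% under H3K27me3 and 72.5% to 88.3% under H3K9me3 by bases covered in both experiments.

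The 3 largest clusters and a cluster on chromosome 10 were mosaics of marked and unmarked genes. Such mixing was not particular to them. The 37 genes from Olfr1275 to Olfr1318 on chromosome 2 lay in 15 runs of the same state, with 18 under both marks and 10 under neither. The 25 genes from Olfr172 to Olfr209 on chromosome 16 and the 20 from Olfr458 to Olfr47 on chromosome 6 each lay in 9 runs. The 222 genes from Olfr987 to Olfr1274 on chromosome 2 (85330967 to 90401674), the largest cluster, had 65.9% of the territory under H3K27me3 in Exp1 and 46.7% in Exp2, and 73.7% and 66.8% under H3K9me3. It was called H3K9me3 only, with 60.3% and 46.2% of the territory covered in both experiments by H3K9me3 and H3K27me3, and Exp1 alone would give both marks. Its genes divided into 73 with both marks, 19 with H3K27me3 only, 51 with H3K9me3 only and 79 with neither, in 69 runs of the same state. The first 50 genes, Olfr987 to Olfr1054, held 34 with neither mark, 14 with H3K9me3 only and 2 with both. Among the genes ranked 101 to 150, Olfr1128 to Olfr1195, 27 carried both and 9 neither. Of those first 50 genes, 25 were covered by H3K9me3 in Exp1 and 22 in Exp2, and 8 and 2 were covered by H3K27me3, which left 22 and 28 with neither in each experiment by itself.

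The 126 genes from Olfr543 to Olfr692 on chromosome 7 (102476773 to 105369317) held 121 of the 123 class I genes. H3K27me3 covered 76.8% and 55.2% of that territory in Exp1 and Exp2, and H3K9me3 58.9% and 52.6%. The cluster was called H3K27me3 only at 50.7%, just inside the 50% line, with H3K9me3 at 47.2% just outside. Since each mark was above 50% in each experiment, each experiment by itself gave both marks. Of the first 25 genes, Olfr543 to Olfr571, 20 carried neither mark, and of the genes ranked 101 to 125, Olfr661 to Olfr691, 16 did, against 3 to 6 in each block of 25 between them. These counts rest largely on Exp2, where 18 and 13 genes of the end blocks had neither mark, while Exp1 had 9 in each. In the blocks between them Exp1 had 0 to 5 and Exp2 2 to 4. The cluster also encloses 27 other protein-coding genes, among them the beta-globin genes, of which Hbb-bt lay under both marks and Hbb-bs, Hbb-bh2, Hbb-bh1 and Hbb-y under H3K27me3 only.

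The 94 genes from Olfr160 to Olfr986 on chromosome 9 (37711348 to 40188094) had 74.0% and 53.0% of their territory under H3K27me3 and 63.3% and 53.0% under H3K9me3, and were called H3K27me3 only at 51.1%, with H3K9me3 at 48.3%. Here too each experiment by itself gave both marks. The 58 genes from Olfr9 to Olfr827 on chromosome 10 (128989914 to 130211128), next in size after the chromosome 19 cluster, were called neither, with H3K9me3 just outside the line at 49.2% and H3K27me3 at 33.7%. H3K27me3 covered 63.3% and 37.3% in Exp1 and Exp2 and H3K9me3 58.1% and 51.1%, so Exp1 alone gave both marks and Exp2 alone H3K9me3 only. In the middle of that cluster, 17 of the 20 genes from Olfr787 to Olfr809 carried neither mark, and 17 also in each experiment by itself, and the run of 18 genes without either mark from Olfr796 to Olfr814 was the longest of its kind in any cluster. The 20 genes from Olfr458 to Olfr47 on chromosome 6 were the other large cluster with neither mark, with 25.4% and 29.7% of the territory under H3K27me3 and H3K9me3 in both experiments. In the 21 genes from Olfr30 to Olfr311 on chromosome 11, H3K27me3 covered 65.3% and 66.7% in Exp1 and Exp2 and H3K9me3 36.5% and 27.1%.

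**Figure D3:**
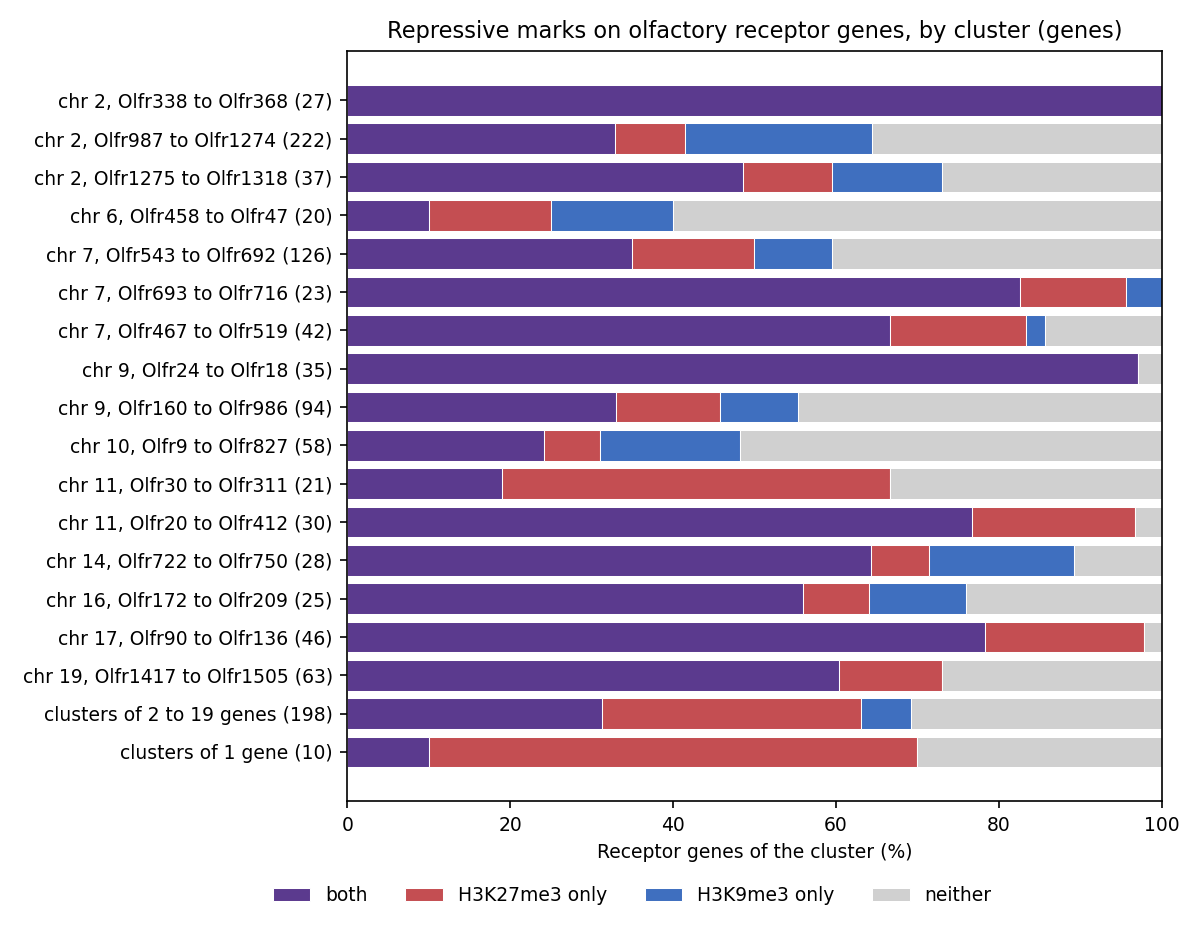
Share of the receptor genes of each cluster that carried both repressive marks, H3K27me3 only, H3K9me3 only or neither, for the 16 clusters of 20 or more genes and for the smaller clusters pooled, with the number of genes in parentheses. All 27 genes from Olfr338 to Olfr368 carried both marks, and 12 of the 20 genes from Olfr458 to Olfr47 carried neither.

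**Figure D4:**
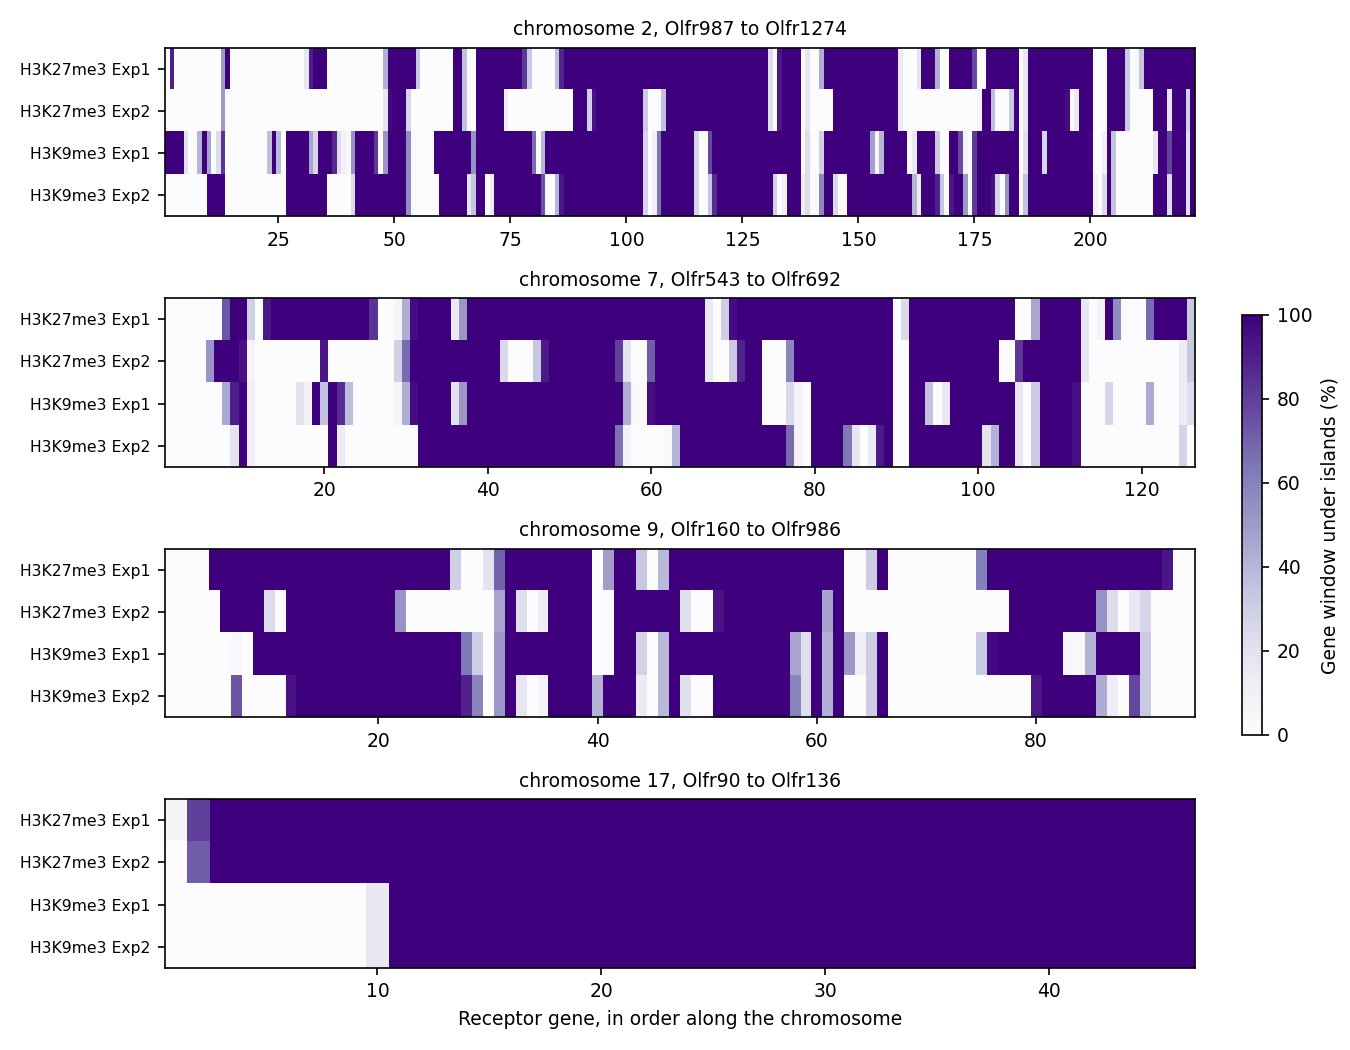
Percent of each gene window under H3K27me3 and H3K9me3 islands in Exp1 and Exp2, for receptor genes in chromosome order in the clusters Olfr987 to Olfr1274, Olfr543 to Olfr692, Olfr160 to Olfr986 and Olfr90 to Olfr136. The first 3 are mosaics of covered and uncovered blocks, and in the last H3K9me3 covers 16.3% of the Olfr99 window and all windows from Olfr101 on in both experiments.

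By bases covered in both experiments, 11 of the smaller clusters, with 2 to 19 genes, carried H3K27me3 only. Examples are the 8 genes from Olfr1416 to Olfr12 on chromosome 1, with 95% under H3K27me3 in each experiment and 50.8% and 15.3% under H3K9me3, and the 9 genes from Olfr288 to Olfr279 on chromosome 15, with 90.4% and 86.6% under H3K27me3 and 22.1% and 0% under H3K9me3. Some of the 11 calls differed by experiment. Exp1 alone gave both marks for Olfr1416 to Olfr12, Olfr372 to Olfr374, Olfr221 to Olfr1507 and Olfr55 to Olfr63. Exp2 alone did so for Olfr461 to Olfr460. For Olfr1358 to Olfr57 on chromosome 10 each experiment by itself gave both marks, with H3K9me3 over 56.1% and 54.7%. The rest of the 11 had H3K27me3 only in each experiment by itself. The 15 genes from Olfr310 to Olfr292 on chromosome 7 were the second cluster with H3K9me3 only, with 93.2% under H3K9me3 in each experiment and 53.0% and 46.6% under H3K27me3. In 5 clusters with 11 genes, no base was under either repressive mark in both experiments. They were the 4 genes from Olfr275 to Olfr270 on chromosome 4, Olfr520 and Olfr521 on chromosome 7, the 3 genes from Olfr222 to Olfr225 on chromosome 11 and the isolated Olfr459 on chromosome 6, all at 0% in the 4 lists of repressive marks, and the isolated Olfr267. At Olfr267 on chromosome 4, Exp1 covered 24.9% by H3K27me3 and 20.2% by H3K9me3 and Exp2 had none. The 6 genes from Olfr16 to Olfr418 on chromosome 1 carried neither mark, with 64.6% and 0% under H3K27me3 in Exp1 and Exp2. The pair Olfr161 and Olfr15 on chromosome 16 lay just inside the line for both marks. The window of Olfr161 was covered fully by both and that of Olfr15 by neither.

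Of 1051 neighbouring pairs within a cluster, 792 (75.4%) had the same state. Windows reach 10 kb to each side, so those of close neighbours share bases, and long islands span several genes. Part of this agreement is thus built in, and its size was not measured. The most common state, both marks, was carried by 44.0% of all receptor genes. In the 16 large clusters, the 96 genes at the ends (3 at each end) carried both marks in 38.5%, against 48.2% of the 801 inner genes. H3K9me3 was carried by 45.8% of the end genes and 59.8% of the inner genes, and H3K27me3 by 60.4% and 59.1%. The windows of end genes reach into the flanks.

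Both repressive marks were more extensive inside the clusters than beside them. The flanks, 200 kb on either side of each cluster outside every receptor window, had 35.0% ± 4.01 of their length under H3K27me3 and 27% ± 2.13 under H3K9me3, with 11.2% ± 3.97 under H3K4me1 and 4.90% ± 0.239 under H3K4me3 (SD, n = 2 each). All 16 large clusters exceeded their own flanks for both marks, by bases covered in both experiments. Over all 54 clusters, 45 exceeded their flanks for H3K27me3, 5 lay below them and 4 were equal. For H3K9me3, 34 exceeded their flanks, 12 lay below them and 8 were equal. Around the 32 edges of the large clusters, H3K27me3 covered 65.7% ± 7.65 of the first 100 kb inside the outermost receptor gene, against 34.7% ± 1.23 of the 100 kb outside it, and H3K9me3 covered 54.7% ± 4.69, against 25.4% ± 3.23. H3K4me1 covered 0.606% ± 0.361 inside, against 7.99% ± 2.96 outside, and H3K4me3 0.722% ± 0.0751, against 4.14% ± 0.0943. Some flanks were themselves covered: the 200 kb around the cluster Olfr693 to Olfr716 had 83.8% under H3K27me3 and 60.9% under H3K9me3 in both experiments.

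**Figure D5:**
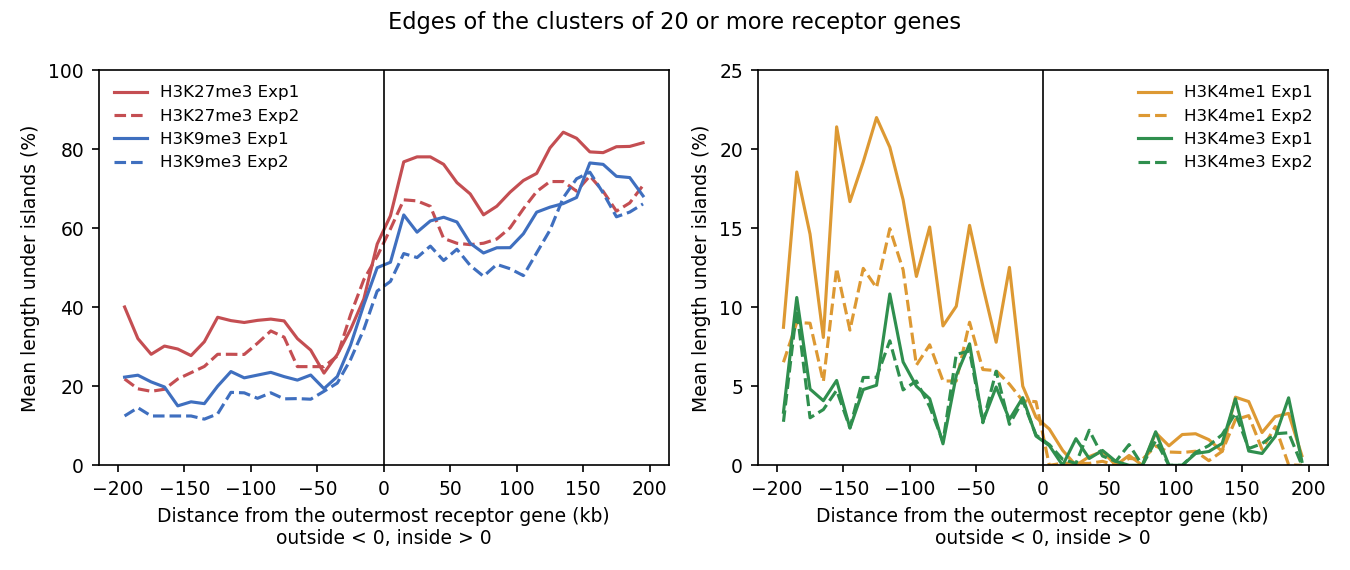
Mean percent of each 10 kb bin under islands against the distance from the outermost receptor gene, over the 32 edges of the 16 large clusters, for the repressive marks (left) and the H3K4 marks (right, on a smaller scale); solid lines are Exp1 and dashed lines Exp2, and negative distances lie outside the cluster. In the first 100 kb inside, mean coverage is 65.7% for H3K27me3 and 54.7% for H3K9me3, against 34.7% and 25.4% in the first 100 kb outside.

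Islands of the H3K4 marks were rare near receptor genes. A window held an H3K4me3 island in both experiments for 22 receptor genes (1.99%), where 68.4% of all protein-coding genes had such a window. It held H3K4me1 for 14 genes (1.27%), where 68.2% of all genes did. On the gene itself, H3K4me3 lay on 1 receptor gene, against 62.9% of all genes, and H3K4me1 on 3, against 61.4%. Receptor gene spans are shorter, with a median of 951 bp against 18.9 kb for other protein-coding genes. Many of them need not hold the transcription start, so the shares on the gene are not on an equal footing. With 1 experiment alone, 30 windows held H3K4me3 in Exp1 and 48 in Exp2, and 35 and 44 held H3K4me1. Most of these islands stood at the ends of other genes. Of the 22 genes with H3K4me3, 12 had the island within 1 kb of an end of a protein-coding gene of another kind, 2 at tRNA genes and 3 at noncoding genes or pseudogenes. Examples are Olfr1416, whose island lay at Ndufa10 (a subunit of respiratory complex I), Olfr549 and Olfr550, which shared the island of Trim21 (an antibody receptor with ubiquitin ligase activity), Olfr522 with that of Sprn, Olfr986 with that of Zfp202, and Olfr98 and Olfr99 with that of H2-M3, a nonclassical class I histocompatibility gene. Of the 22 genes, 4 carried both repressive marks, 7 H3K27me3 only and 11 neither. Of the 14 genes with H3K4me1, 0 carried both, 6 H3K27me3 only and 8 neither. Over all receptor genes, 44.0% carried both, 16.0% H3K27me3 only, 10.1% H3K9me3 only and 29.9% neither.

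Olfr1033 on chromosome 2 (86020640 to 86044808) was the receptor gene with H3K4me3 on its own span. The deposited islands, joined over both experiments, reached from 86018001 to 86021800 at its proximal end, with the authors' p-values of 1.02e-10 in Exp1 and 0.00890 in Exp2. The largest p-value in the Exp2 list was 0.00893, so the second island was among the weakest listed. An H3K4me1 island lay at the same end, with deposited p-values of 1.81e-05 in Exp1 and 0.0579 in Exp2. H3K27me3 covered 90.1% of the Olfr1033 window in Exp1 and none in Exp2, and H3K9me3 covered 45.7% and 100%, so it counted as carrying neither repressive mark.

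The other genes with H3K4me1 on the span were Olfr287 and Olfr94. In Olfr287 on chromosome 15 the H3K4me1 region joined over both experiments (98212201 to 98217200) lay inside the gene span, with deposited p-values of 1.12e-81 and 1.19e-29. In Olfr94 the joined region covered the gene (37196601 to 37198600 on chromosome 17), with p-values of 5.90e-18 and 1.87e-19, and it also lay within 1 kb of an end of Ubd, a ubiquitin-like gene. The promoter of Olfr94 printed above ended at 37198216 and so lay inside this region. H3K27me3 covered 100% of both gene windows in each experiment, and H3K9me3 covered 0%. Near Olfr470, Olfr478 and Olfr834, whose windows were fully under both repressive marks in both experiments, H3K4me3 islands without an annotated gene end nearby had deposited p-values between 2.26e-05 and 0.000902.

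Of 12 receptor genes from a fixed set studied in earlier work, 5 lay under both repressive marks over 100% of the window in all 4 lists. These were Olfr2 (the I7 receptor for octanal), Olfr17 (P2), Olfr73 (the eugenol receptor mOR-EG), Olfr734 and Olfr1507 (MOR28). The other 7 carried neither mark. Of all 1105 receptor genes, 44.0% carried both marks and 29.9% neither, so these 12 are described one by one and not as a group. Olfr15, Olfr160 (M72) and Olfr544 (a receptor for azelaic acid) were at 0% for both repressive marks in all 4 lists. Olfr15 had H3K4me3 and H3K4me1 islands in its window, at Zfp174. Olfr16 (MOR23), Olfr78 and Olfr558 were covered by H3K27me3 over 100% of the window in Exp1 and 0% in Exp2. Olfr78, known from oxygen sensing in the carotid body, had H3K9me3 over 19.3% in Exp1 and 0% in Exp2. Olfr1393, described in renal glucose handling, had H3K27me3 over 4.87% in Exp1 and 0% in Exp2, and an H3K4me1 island near Mgat1.

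The states of class I and class II genes were counted apart. Both marks were carried by 44 of 123 class I genes (35.8%) and 430 of 958 class II genes (44.9%), and neither by 49 (39.8%) and 274 (28.6%). Because nearly all class I genes share 1 locus, class and locus cannot be told apart. Sequence families (by MOR number) that share a locus also ranged widely, within class I and within class II. In class I, 9 of the 11 MOR32 genes carried both marks. Of the 11 MOR31 genes, 2 carried both and 6 neither. In class II, all 14 MOR136 genes and all 10 MOR218 genes carried both marks, and so did 28 of 30 MOR202 genes. Of the 17 MOR233 genes, 10 carried H3K9me3 only and 1 both. Of the 10 MOR224 genes, 8 carried neither mark. The MOR256 family, with 49 genes in 7 clusters, had 20 genes with both marks, 14 with H3K27me3 only, 0 with H3K9me3 only and 15 with neither.

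Some receptor genes have another protein-coding gene close by. Of the 40 whose window held part of such a gene, 6 (15%) carried both marks and 23 (57.5%) neither, against 480 (45.1%) and 307 (28.8%) of the other 1065. Among the 113 protein-coding genes of other kinds that lay between the first and last receptor gene of 23 clusters, 61 (54.0%) had H3K4me3 in their window in both experiments, against 68.4% of all genes. Both repressive marks were carried by 28 of the 113 and neither by 67, where 10.2% and 78.7% of all genes did.

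Genes without H3K4 islands are the closer comparison. Of the 4481 other protein-coding genes with neither H3K4me3 nor H3K4me1 in their window, 30.1% carried both repressive marks and 53.9% neither, against 44.0% and 29.9% of receptor genes. Without vomeronasal and Taar genes, 26.7% of 4141 did and 57.3% carried neither. Vomeronasal receptors, the pheromone receptors of the vomeronasal organ, were covered more fully than olfactory receptors. Both marks were carried by 74.6% of the 228 Vmn1r genes and 76.2% of the 122 Vmn2r genes. The windows of Vmn1r genes were covered over 89.7% ± 5.60 by H3K27me3 and 86.5% ± 5.66 by H3K9me3, and those of Vmn2r genes over 85.8% ± 5.08 and 90.0% ± 1.90 (SD, n = 2 each). The 15 Taar genes, which encode the amine receptors of the olfactory epithelium and lie in 1 cluster, all carried neither mark, with H3K27me3 over 23.8% and 12.5% of their territory in Exp1 and Exp2 and H3K9me3 over 0% in each.

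The genes that act with the receptors in olfactory neurons were also counted. Of 17 genes of olfactory transduction and receptor trafficking, 12 carried H3K4me3 in their window and 13 H3K4me1, and 0 carried a repressive mark over 50% of the window. Those with H3K4me3 included Adcy3 (adenylyl cyclase), Gnal (the olfactory G protein alpha subunit) and Cngb1 (a channel subunit also used in rods). Cnga2 (the olfactory channel subunit), Stoml3, and the receptor transporters Rtp1 and Rtp2 had neither H3K4 mark, and Omp, the olfactory marker protein gene, had H3K4me1 alone. Of 15 genes for receptor choice and its chromatin, such as Lhx2, Ldb1, Kdm1a and Setdb1, 13 carried H3K4me3 and all 15 carried H3K4me1, while Ebf3 and Emx2 carried H3K27me3. For comparison, 68.4% and 68.2% of all genes carried H3K4me3 and H3K4me1. H3K27me3 was carried by 19.7% of all genes, H3K9me3 by 11.8%, and neither by 78.7%. Some of the listed genes lay just below the 50% line. By bases covered in both experiments, H3K27me3 lay over 45.2% of the Gnal window, 48.2% of that of Slc24a4 and 49.5% of that of Lhx2. The window of Gng13 was at 0% in Exp1 and 100% in Exp2.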

How the data were processed

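ChIP-seq of 4 histone marks in 2 experiments each was described from 8 island lists. The 2 input libraries were not analysed here. Per the submitters' processing notes, the genome build was mm10 and the tools were SICER, which joins enriched windows into islands, with BWA 0.7.5a, SAMtools 1.3.1, bedtools 2.17 and FastQC. The sources used here do not give SICER's settings, its control or the handling of reads that map to several places, and some receptor genes have near-identical copies. Each island that the authors deposited has a p-value, which could be a q-value, since the sources do not say. The p-values are the authors' and were used to describe and filter islands.

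Gene positions came from the RefSeq table of GRCm38.p6, which has no strand, and 126 protein-coding genes could not be placed. Coverage was computed in Python 3.11.15 on interval sets and tested on simulated data. A repressive mark was carried at 50% coverage or more by bases in both experiments, and an H3K4 mark by an overlap of 1 bp or more in both. Class I was a MOR family number below 100. Named genes were a fixed set of studied receptors, the clusters of 20 or more genes, and genes with H3K4me3. Smaller clusters, MOR families, Hbb genes and genes with H3K4me1 were named after their values were seen. Olfr151, also listed for naming, is a pseudogene in the table and no member. Members and lists were chosen with earlier results of these data known. Alternatives were other coverage thresholds, windows, cluster gaps, p-value filters, each experiment alone, either experiment and no X chromosome. The experiment numbers were not shown to pair samples: across genes, the differences between Exp1 and Exp2 of H3K27me3 and H3K9me3 correlated with r = 0.0855, and those of H3K4me1 and H3K4me3 with r = 0.124. Of the rod markers, 1 is not reported here.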

Additional observations from a re-analysis of the deposited data

How the results depend on the processing

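Of 150 recomputed values, 104 stayed within 1.5 times the count given or within 1 SD of the coverage given, and 46 moved. For coverage, 1 of 2 experiments always lies within 1 SD of their mean, so leaving out 1 experiment could not count as moved. The 104 therefore include such values, among them H3K27me3 coverage of 79.0% in Exp1 and 65.0% in Exp2. Clusters with both marks, H3K27me3 only, H3K9me3 only and neither numbered 19, 20, 2 and 13. At 25% coverage 33, 13, 1 and 7 were counted. At 75% coverage 10 carried both, 1 H3K9me3 only and 25 neither. At 1 bp the counts were 38, 10, 1 and 5, and by bases in either experiment 35, 12, 0 and 7. Windows with 50 kb on each side gave 13 with H3K27me3 only and 4 with H3K9me3 only, and joining under 200 kb gave 20 with neither. Leaving out 1 experiment gave 24 to 32 with both, 0 to 4 with H3K9me3 only and 7 to 11 with neither.

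Of the gene counts, H3K9me3 only (112) ranged from 62 to 142 and neither (330) from 192 to 280 with 1 experiment left out, and bases in either experiment gave 72 and 162. Genes with H3K4me3 (22) numbered 30 to 48 with 1 experiment left out, 56 in either, 1 on the gene span, 146 with 50 kb on each side and 7 by islands at or below the median p. Genes with H3K4me1 (14) numbered 35 to 44, 65, 3, 112 and 6 under the same settings.

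Coverage by H3K9me3 was 61.2% on gene spans alone and 60.3% by islands at or below the median p. Coverage by H3K4me1 was 0.333% on gene spans, 1.80% with 50 kb on each side, 0.210% by islands at or below the median p and 0.462% by islands with p of 0.05 or less. Coverage by H3K4me3 was 0.0833%, 1.18% and 0.0960% under the first 3 of these. The cause of these shifts was not tested.

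With the experiment as a replicate block, where each experiment had to cover 50% by itself, 22 clusters carried both marks, 17 H3K27me3 only, 3 H3K9me3 only and 12 neither, and the gene counts stayed at 486, 177, 112 and 330. Without read counts, depth could not be set against these differences between experiments.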

Other observations

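The 318 olfactory receptor pseudogenes of the gene table, which were not members, had states like those of the coding genes around them. Both repressive marks were carried by 157 (49.4%), H3K27me3 only by 52, H3K9me3 only by 25 and neither by 84 (26.4%). For 263 of the 318 (82.7%) the state was that of the nearest coding receptor gene. Windows with 10 kb on each side can overlap, and how many of these pairs share bases or an island was not counted.

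Of the 940 receptor promoters with a sequence, those of genes with H3K27me3 only had a median GC content of 37.6%, against 32.8% for genes with both marks, 32.8% for genes with H3K9me3 only and 35.2% for genes with neither.

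In the windows of Olfr153, Olfr331 and Olfr1419, the H3K4me3 island was 0.4 kb wide in both experiments, against a median of 3.2 kb and 2.4 kb over all islands of Exp1 and Exp2. For Olfr153 and Olfr1419 it lay at the annotated pseudogenes or noncoding genes Gm13736 and Gm6365.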
